A study of Mus musculus with 4 samples.

Results

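Interferon-stimulated genes were examined in sorted mouse periosteal cells with and without Sfrp4, which encodes a secreted inhibitor of Wnt signalling. The set was a fixed list of 38 gene symbols, and all 38 were found among the 54532 genes of the count table. The Sfrp4-/- group had 2 libraries from CtskCre;mTmG;Sfrp4-/- mice, and the WT group had 2 libraries from CtskCre;mTmG mice with intact Sfrp4. Mice of both groups were 4 weeks old and carried Cre driven by Ctsk together with mTmG, a reporter that turns to GFP in cells with a history of Ctsk activity. Each library was made from cells pooled from 3 mice, so p-values measure the spread between pools and not between animals. The sort kept GFP+ CD200+ CD105- cells of long-bone periosteum, after removal of blood and vessel cells (CD45, CD31, Ter119) and of Thy1.2 and 6C3 positive cells. Which part of Sfrp4 is deleted is not given in the sources used here.

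Interferons are secreted alarm proteins made by cells that sense viral or misplaced nucleic acid. Type I interferons bind a receptor of Ifnar1 and Ifnar2, whose kinases Jak1 and Tyk2 activate Stat2. A complex that holds Stat2 and Irf9 then binds a short promoter element and switches on interferon-stimulated genes. Many cells also keep a low level of these genes without infection, and in bone, interferon signalling is known to restrain osteoclast formation.

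The libraries held 17119332 to 18750003 counts. Levels are given as CPM, counts scaled to the library total after correction for composition, and 1 count equalled 0.0486 to 0.0666 CPM. Sfrp4 itself was at 11.4 and 12.1 CPM in Sfrp4-/- libraries, against 90.7 and 107 CPM in WT libraries. Ctsk, the gene that drives the lineage label, was at 1460 and 1683 CPM in Sfrp4-/- libraries and at 1053 and 2048 CPM in WT libraries. Sfrp4-/- replicates 1 and 2 had counts for 17359 and 20080 genes, and WT replicates 1 and 2 for 16333 and 15400. Unless another method or setting is named, tests of change below are edgeR's quasi-likelihood test over 13737 genes. Counts of members whose genotypes do not overlap come from no test. Where a library is left out, its genotype has a single library, which is assumed to vary like those of the other genotype, so those p-values are descriptions.

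The interferon-stimulated genes were present at a low level, with members on both sides of no difference between the genotypes. Summed over all 38 members, the level was 174 and 220 CPM in Sfrp4-/- replicates 1 and 2, and 231 and 186 CPM in WT replicates 1 and 2. The means were 197 ± 32.2 CPM in Sfrp4-/- and 209 ± 32.4 CPM in WT libraries (SD, n = 2 each), and the genotypes overlapped; with libraries scaled by totals alone the order of the means turned round (log2 ratio 0.175, against -0.083). It also turned without Sfrp4-/- replicate 1 (0.077) and without WT replicate 1 (0.088). Of the 33 members with enough counts to test, 15 had a log2 fold change (Sfrp4-/- minus WT, throughout) above 0 and 18 below 0. Their median was -0.23, beside 0.0032 over all genes tested, and with totals alone it was 0.066 beside 0.24. Without Sfrp4-/- replicate 1 it was 0.12 beside 0.020 over all genes, and without WT replicate 1 it was 0.25 beside 0.066. The log2 fold change was smaller than its own SE for 22 of the 33. In bulk cells, fewer cells that express a gene and less of its RNA per cell cannot be told apart.

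No member passed the test. The count with an edgeR adjusted p under 0.05 was 0 of 33 members, and the background was 0% of all 13737 genes. DESeq2 and limma-voom also called 0 members. At an unadjusted p under 0.05, edgeR gave 1 member higher in Sfrp4-/- libraries, Rsad2, where the background was 1.41% of genes, and 1 member lower, Igtp, where it was 0.706%. Both Sfrp4-/- libraries lay above both WT libraries for 6 members (18.2% of those tested, background 15.0%), namely Cmpk2, Dhx58, Isg15, Isg20, Oas1a and Rsad2. Both lay below for 6 others (18.2%, background 12.6%), namely Bst2, Ddx58, Ifi35, Igtp, Trim25 and Usp18. These shares are near the background. With libraries scaled by totals alone the counts were 10 higher (background 27.1%) and 3 lower (background 5.20%), as the values of all genes moved with the scaling; Bst2, Ifi35 and Trim25 then overlapped.

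**Figure D1:**
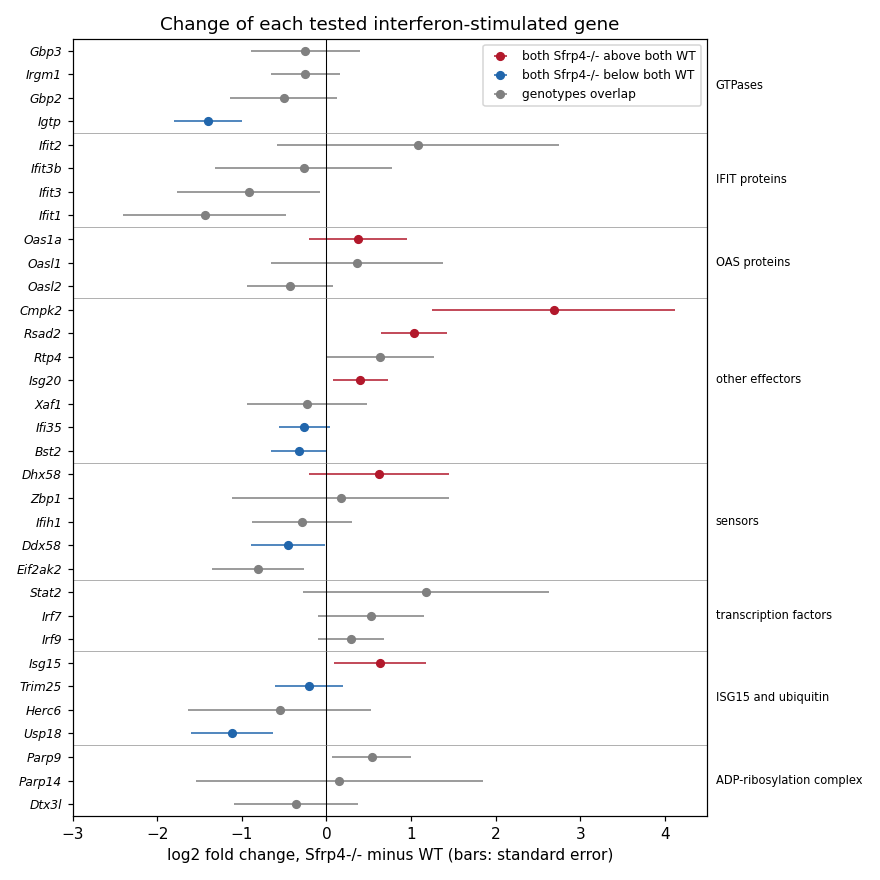
Log2 fold change of each of the 33 tested members (x axis, Sfrp4-/- minus WT; bars are standard errors), grouped by role on the y axis and coloured by whether the libraries of the genotypes overlap. Values lie on both sides of 0 in most groups, from -1.44 for Ifit1 to 2.68 for Cmpk2.

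Levels of different genes were compared per length, as TPM, a measure scaled for gene length and depth, computed here from the counts and the deposited gene lengths. The median tested member had a mean of 3.13 TPM, against 7.23 TPM for the median of all genes tested. Bst2, which encodes tetherin, a membrane protein that holds budding virus on the cell, was the most abundant member. It had 59.3 and 96.3 TPM in Sfrp4-/- libraries and 91.6 and 85.3 TPM in WT libraries. Ifi35, an interferon-induced leucine zipper protein, had 32.6 and 35.3 TPM in Sfrp4-/- libraries and 35.0 and 38.9 TPM in WT libraries. Isg20, an exonuclease that degrades single-stranded RNA, had 35.1 and 27.2 TPM in Sfrp4-/- libraries and 23.3 and 19.8 TPM in WT libraries. Only Bst2, Ifi35, Isg20, Isg15 and Igtp, 5 of the 38, averaged at least 10 TPM, and 29 of the 38 averaged at least 1 TPM. Among tested genes, Bst2 stood at the 88.2nd percentile of mean TPM and Rsad2, the sixth most abundant member, at the 53.0th.

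**Figure D2:**
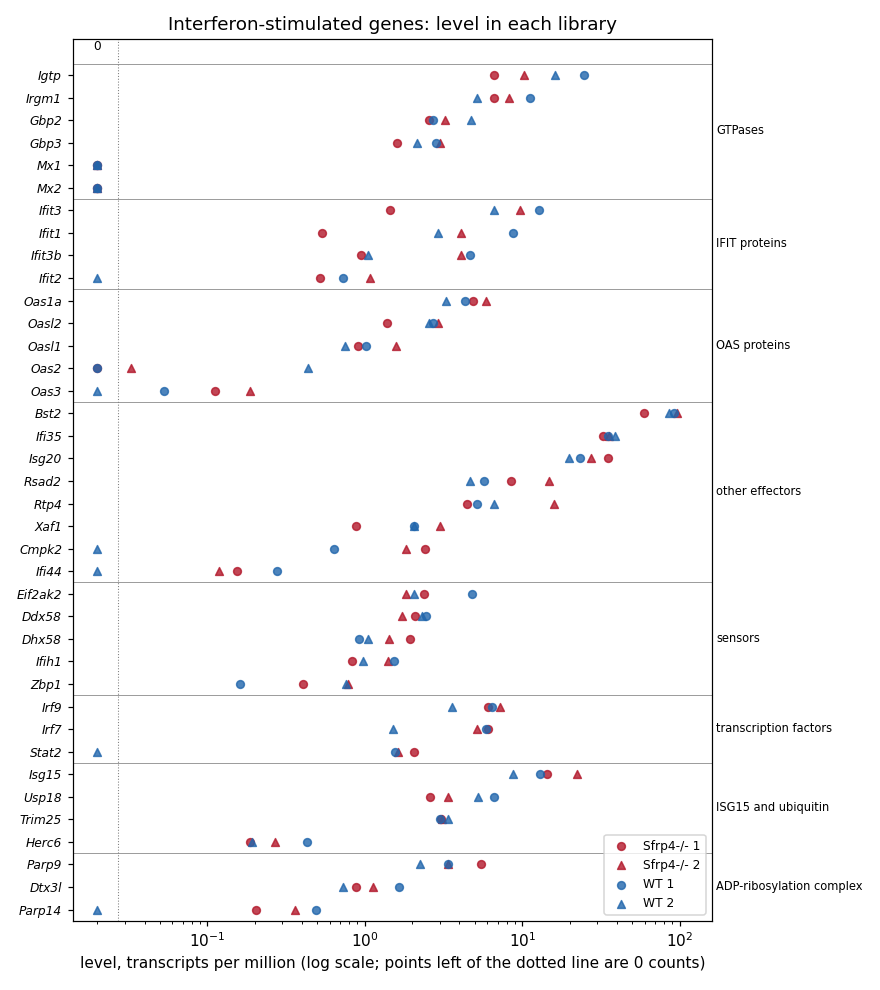
Level of each of the 38 members in each library (x axis, TPM on a log scale; members by role on the y axis; Sfrp4-/- libraries red, WT libraries blue, replicate 1 as circles and replicate 2 as triangles). Bst2 lies highest in every library, and Mx1 and Mx2 have 0 counts in all 4.

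At the bottom of the range, Mx1 and Mx2, of a family of dynamin-like GTPases that block virus replication, had 0 counts in every library. The deposited annotation labels Mx2 a polymorphic pseudogene. A count of 0 allows a level of up to 0.162 and 0.146 CPM in Sfrp4-/- libraries and up to 0.200 and 0.175 CPM in WT libraries (3 counts, counting error only). Ifi44, Oas2 and Oas3 had too few counts to test. Ifi44 had 6 and 5 counts in Sfrp4-/- libraries and 9 and 0 counts in WT libraries. Oas3 had 5 and 9 counts in Sfrp4-/- libraries and 2 and 0 counts in WT libraries. Oas2 had 0 and 1 counts in Sfrp4-/- libraries and 0 and 13 counts in WT libraries, so almost all of its reads came from WT replicate 2. No tested member had reached the filter through libraries of a single genotype alone.

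The promoters of Rsad2, Cmpk2, Igtp and Ifit1, among the members of lowest edgeR unadjusted p in each direction, are shown. That of Isg15 is shown as the gene that names the class. Promoters were read because the complex with Stat2 and Irf9 acts through a promoter element. Windows of 250 bases before the start site were read from RefSeq (GRCm38.p6), which matched 29 of the 38 symbols. Not matched were Dhx58, Mx1, Mx2, Oas2, Parp9, Parp14, Rtp4, Usp18 and Zbp1. The core of the interferon-stimulated response element was searched on both strands as GAAA, any 2 bases, GAAA. It was found in 13 of the 29 members (44.8%), beside 936 of 27025 genes in the whole table (3.46%). The gamma-activated sequence, searched as TTC, any 3 bases, GAA, which reads the same on both strands and can overlap the first motif, was found in 6 of the 29 (20.7%), beside 8.13% of all genes. The sequences below run 5′ to 3′ on the gene's strand and end just before the start site, with each match to the first motif or its reverse complement in capitals. The windows lie at chr12:26456453-26456702 (minus strand) for Rsad2, chr12:26468965-26469214 (plus strand) for Cmpk2, chr11:58199306-58199555 (plus strand) for Igtp, chr19:34640639-34640888 (plus strand) for Ifit1 and chr4:156200819-156201068 (minus strand) for Isg15.
Rsad2: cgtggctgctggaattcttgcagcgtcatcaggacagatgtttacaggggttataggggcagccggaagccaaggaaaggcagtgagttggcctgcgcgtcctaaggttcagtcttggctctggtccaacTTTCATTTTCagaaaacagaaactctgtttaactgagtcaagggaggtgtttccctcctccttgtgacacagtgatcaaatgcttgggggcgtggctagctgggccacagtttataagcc
Cmpk2: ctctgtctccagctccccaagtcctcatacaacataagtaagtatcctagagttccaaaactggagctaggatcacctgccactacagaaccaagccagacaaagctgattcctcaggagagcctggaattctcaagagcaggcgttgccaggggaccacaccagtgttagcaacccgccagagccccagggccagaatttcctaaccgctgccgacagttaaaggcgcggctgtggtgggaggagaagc
Igtp: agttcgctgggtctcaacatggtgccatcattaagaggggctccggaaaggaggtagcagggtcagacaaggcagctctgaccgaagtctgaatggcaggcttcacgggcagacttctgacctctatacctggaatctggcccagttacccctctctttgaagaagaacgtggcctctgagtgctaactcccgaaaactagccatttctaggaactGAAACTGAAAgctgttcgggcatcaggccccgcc
Ifit1: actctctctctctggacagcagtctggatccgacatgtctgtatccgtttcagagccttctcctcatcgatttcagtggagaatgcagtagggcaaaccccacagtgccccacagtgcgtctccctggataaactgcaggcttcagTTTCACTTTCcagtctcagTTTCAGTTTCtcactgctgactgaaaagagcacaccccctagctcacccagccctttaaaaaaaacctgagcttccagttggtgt
Isg15: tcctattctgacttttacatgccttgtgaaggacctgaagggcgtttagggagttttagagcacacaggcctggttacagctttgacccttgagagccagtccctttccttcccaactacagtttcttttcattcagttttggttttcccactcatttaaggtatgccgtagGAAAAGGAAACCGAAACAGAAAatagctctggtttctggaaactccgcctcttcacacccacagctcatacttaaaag

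The nearest match ended 110 bases before the start site in Rsad2, 24 bases in Igtp, 75 bases in Ifit1 and 56 bases in Isg15. Ifit1 holds 2 matches and Isg15 3 overlapping ones, while the Cmpk2 window holds none. A match is a description of letters and not a measured site. Changes of members with and without a match are given as a description. The 12 tested members with a match had a median log2 fold change of -0.26, with 4 above 0 and 8 below 0. They include both members with an edgeR unadjusted p under 0.05, Rsad2, which was higher (background 1.41%), and Igtp, which was lower (0.706%). The 15 tested members with a window but no match had a median of -0.23, with 6 above 0 and 9 below 0, and 0 under that p in edgeR. Cmpk2, without a match, was under it with DESeq2 (unadjusted p = 0.0455).

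Among the antiviral enzymes, Rsad2 and Cmpk2 stood higher in both Sfrp4-/- libraries. Rsad2 (ENSMUSG00000020641, minus strand of chromosome 12, 26442746 to 26456452, mm10) encodes viperin, which makes a chain-terminating nucleotide from CTP. It was at 12.6 and 21.2 CPM in Sfrp4-/- libraries and at 8.73 and 7.80 CPM in WT libraries. The means were 16.9 ± 6.09 and 8.27 ± 0.653 CPM (SD, n = 2 each), and the log2 fold change was 1.03 ± 0.39 (SE; edgeR unadjusted p = 0.0327, adjusted p = 1.00). Without Sfrp4-/- replicate 2, its highest library, the log2 fold change was 0.62 (edgeR unadjusted p = 0.325), and without WT replicate 2 it was 0.95 (edgeR unadjusted p = 0.0624).

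Cmpk2 lies next to Rsad2 on chromosome 12, at 26469204 to 26479837 on the plus strand, 12751 bases away and with no protein-coding gene between them. It encodes a mitochondrial kinase of UMP and CMP. It had 64 and 52 counts in Sfrp4-/- libraries and 14 and 0 counts in WT libraries. In CPM these were 3.45 and 2.53 in Sfrp4-/- libraries and 0.933 and 0 in WT libraries. The log2 fold change of 2.68 ± 1.43 (SE; edgeR unadjusted p = 0.104) includes a WT library with no read of the gene. Without that library, WT replicate 2, it was 1.67 (edgeR unadjusted p = 0.0642). Without WT replicate 1 the fitted value was 8.81, which is set against 0 counts and is no measure of size.

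Isg20 and Isg15 also separated the genotypes, by less. Isg20 was at 22.3 and 16.8 CPM in Sfrp4-/- libraries and at 15.3 and 14.3 CPM in WT libraries, a log2 fold change of 0.40 ± 0.32 (SE). Isg15, a ubiquitin-like protein attached to other proteins, was at 3.72 and 5.59 CPM in Sfrp4-/- libraries and at 3.46 and 2.56 CPM in WT libraries. Its log2 fold change was 0.63 ± 0.54 (SE; edgeR unadjusted p = 0.288). For Isg15 the nearest libraries of the genotypes, 3.72 and 3.46 CPM, differed by less than the replicates within either.

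Igtp, an immunity-related GTPase that acts on vacuoles holding intracellular parasites, had the lowest unadjusted p of all members. Igtp (ENSMUSG00000078853, plus strand of chromosome 11, 58199556 to 58207591, mm10) was at 4.58 and 6.85 CPM in Sfrp4-/- libraries and at 17.5 and 12.7 CPM in WT libraries. The means were 5.72 ± 1.60 and 15.1 ± 3.41 CPM (SD, n = 2 each), and the log2 fold change was -1.40 ± 0.40 (SE; edgeR unadjusted p = 0.0105, adjusted p = 1.00). The genotypes did not overlap, and the value lay between -1.71 and -1.13 over the 12 alternatives. Without Sfrp4-/- replicate 1 it was -1.14 (edgeR unadjusted p = 0.0807). Igtp shares 8.01% of its exon bases with Irgm2, a related GTPase gene on the same strand, and 12.3% of the 50-base words of its longest transcript occur in Irgm2. Irgm2, not a member, ran the other way, at 4.91 and 7.43 CPM in Sfrp4-/- libraries and 2.86 and 2.62 CPM in WT libraries (log2 fold change 1.17 ± 0.51, SE). Added together, the 2 genes had 9.49 and 14.3 CPM in Sfrp4-/- libraries and 20.4 and 15.3 CPM in WT libraries. The genotypes did not overlap in the sum, but lay closer than for Igtp alone, with 14.3 and 15.3 CPM as the nearest libraries. How reads of shared exons were assigned is not given in the sources used here, and its part in the Igtp result was not tested.

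The other GTPases showed little difference. Irgm1, which acts in the clearance of intracellular bacteria, was at 13.2 and 15.9 CPM in Sfrp4-/- libraries and at 23.05 and 11.7 CPM in WT libraries (log2 fold change -0.25 ± 0.41, SE). Its WT libraries lay on either side of both Sfrp4-/- libraries. The guanylate-binding proteins Gbp2 and Gbp3 had log2 fold changes of -0.50 ± 0.63 and -0.25 ± 0.64.

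Usp18, a protease that removes Isg15 from proteins and dampens signalling at the type I interferon receptor, was lower in both Sfrp4-/- libraries. It was at 2.48 and 3.11 CPM in Sfrp4-/- libraries and at 6.46 and 5.71 CPM in WT libraries. The means were 2.80 ± 0.445 and 6.08 ± 0.534 CPM (SD, n = 2 each), with tight replicates in both genotypes. The log2 fold change was -1.12 ± 0.49 (SE; edgeR unadjusted p = 0.0567, adjusted p = 1.00). Usp18 and Isg15, partners in the same conjugation system, thus lay on opposite sides of 0. Herc6, a ligase for Isg15 in mice that shares 13.7% of its exon bases with another annotated gene, had -0.56 ± 1.08. Trim25, a ubiquitin ligase that acts on the sensor RIG-I, had -0.21 ± 0.41. In the ADP-ribosylation complex, Parp9 had 0.53 ± 0.47 and its ligase partner Dtx3l -0.36 ± 0.73. Parp14, a transferase, was at 0.647 and 1.12 CPM in Sfrp4-/- libraries and at 1.60 and 0 CPM in WT libraries. Parp9 and Dtx3l lie on opposite strands, and 9.40% of the exon bases of Parp9 lie in Dtx3l, where libraries without strand cannot separate them.

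**Figure D3:**
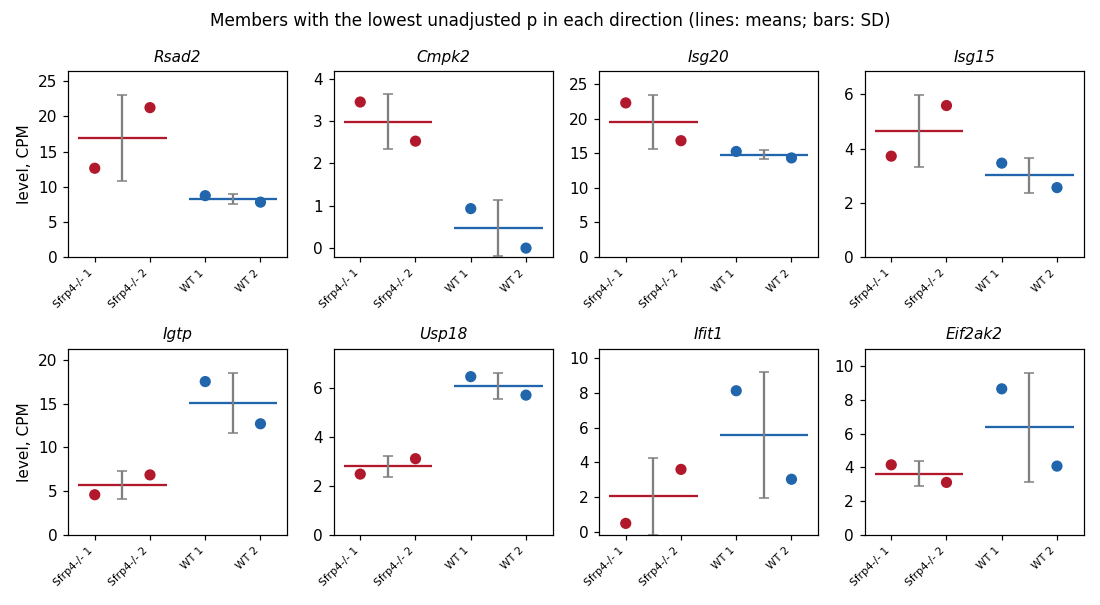
CPM in each library (points) of the 4 members with the lowest unadjusted p in each direction, with the mean of each genotype as a line and its SD as a bar (n = 2 each; Sfrp4-/- red, WT blue). The top row is higher in both Sfrp4-/- libraries; in the bottom row, Igtp and Usp18 are lower in both, while Ifit1 and Eif2ak2 overlap between the genotypes.

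In the IFIT family, antiviral proteins of which Ifit1 binds the ends of foreign RNA, Ifit1 and Ifit3 stood low in a single library. Ifit2, Ifit3, Ifit3b and Ifit1 lie in this order on the plus strand of chromosome 19, between 34550694 and 34650009. Ifit1 was at 0.485 and 3.60 CPM in Sfrp4-/- replicates 1 and 2, and at 8.13 and 3.03 CPM in WT replicates 1 and 2. Its log2 fold change was -1.44 ± 0.96 (SE; edgeR unadjusted p = 0.179). Ifit3 was at 0.863 and 5.64 CPM in Sfrp4-/- libraries and at 7.86 and 4.48 CPM in WT libraries (-0.92 ± 0.85). Both were far lower in Sfrp4-/- replicate 1 than in the other 3 libraries, and Sfrp4-/- replicate 2 lay within the WT range.

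Without Sfrp4-/- replicate 1 the log2 fold change of Ifit1 was -0.63, and without Sfrp4-/- replicate 2 it was -3.49 (edgeR unadjusted p = 0.00405, adjusted p = 1.00). Summed over the 4 IFIT genes, the level was 2.70 and 13.4 CPM in Sfrp4-/- replicates 1 and 2, and 20.3 and 8.33 CPM in WT replicates 1 and 2. Of the 50-base words of the longest Ifit3 transcript, 51.2% occur in Ifit3b, so counts of these near-identical genes are uncertain singly. Taken as a sum, they had 28 and 172 counts in Sfrp4-/- libraries and 167 and 91 counts in WT libraries. Ifit3b alone was at 0.647 and 2.72 CPM in Sfrp4-/- libraries and at 3.26 and 0.815 CPM in WT libraries (log2 fold change -0.27 ± 1.05, SE), low in Sfrp4-/- replicate 1 and in WT replicate 2. Ifit2 was at 0.701 and 1.41 CPM in Sfrp4-/- libraries and at 0.999 and 0 CPM in WT libraries (1.08 ± 1.67), lowest in WT replicate 2.

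The OAS genes, which encode enzymes that make a short nucleotide messenger to activate RNase L and relatives of these enzymes, differed little. Oas1a was at 3.13 and 3.69 CPM in Sfrp4-/- libraries and at 2.86 and 2.39 CPM in WT libraries (0.38 ± 0.58, SE), and 57.6% of the 50-base words of its longest transcript occur in Oas1g. Oasl1, which in mice restrains Irf7, had 0.36 ± 1.02, and Oasl2 had -0.43 ± 0.51. Of the remaining effectors, Bst2 was at 18.3 and 28.9 CPM in Sfrp4-/- libraries and at 29.1 and 29.9 CPM in WT libraries. Its log2 fold change of -0.32 ± 0.33 rested on Sfrp4-/- replicate 1, and was -0.031 without it. Ifi35, 16.8% of whose exon bases lie opposite another annotated gene, had -0.26 ± 0.30. Xaf1, which binds an inhibitor of apoptosis, had -0.23 ± 0.71. Rtp4, a transporter-like protein induced by interferon, 13.9% of whose exon bases lie in another annotated gene, had 0.63 ± 0.64, with 11.2 CPM in Sfrp4-/- replicate 2 and 3.24 to 5.47 CPM in the other libraries.

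Sensors of viral RNA lay on both sides of 0. Ddx58, the helicase RIG-I, was at 5.02 and 4.03 CPM in Sfrp4-/- libraries and at 6.06 and 6.35 CPM in WT libraries (-0.46 ± 0.44, SE), lower in both. Dhx58, its relative LGP2, was at 2.16 and 1.56 CPM in Sfrp4-/- libraries and at 1.07 and 1.34 CPM in WT libraries (0.62 ± 0.83, SE), higher in both. Ifih1, the helicase MDA5, had -0.29 ± 0.59. Eif2ak2, the kinase PKR that halts translation on double-stranded RNA, was at 4.15 and 3.11 CPM in Sfrp4-/- libraries and at 8.66 and 4.08 CPM in WT libraries (-0.81 ± 0.55, SE; edgeR unadjusted p = 0.185). WT replicate 2 lay between the Sfrp4-/- libraries, and without WT replicate 1 the value was -0.16. Zbp1, a sensor of Z-form nucleic acid, had 3 to 19 counts per library and a log2 fold change of 0.17 ± 1.28.

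All 3 transcription factors of the set had log2 fold changes above 0, with wide errors. Irf7, which drives interferon genes, was at 7.87 and 6.46 CPM in Sfrp4-/- libraries and at 7.79 and 2.21 CPM in WT libraries (0.52 ± 0.63, SE). Irf9 was at 11.2 and 12.9 CPM in Sfrp4-/- libraries and at 12.3 and 7.51 CPM in WT libraries (0.29 ± 0.39, SE). Stat2 was at 4.15 and 3.21 CPM in Sfrp4-/- libraries and at 3.26 and 0 CPM in WT libraries (1.18 ± 1.45, SE). In each, WT replicate 2 was the lowest library, and WT replicate 1 lay within the Sfrp4-/- range.

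A single library of each genotype held most of the lowest values. The lowest library was Sfrp4-/- replicate 1 for 14 of the 33 tested members (42.4%, against 16.5% of all genes tested) and WT replicate 2 for another 14 (42.4%, against 30.6%). In WT replicate 2, Cmpk2, Stat2, Parp14 and Ifit2 had 0 counts, while no tested member was at 0 in another library. Their means spanned 0.777 to 2.66 CPM, a range that held 9 tested members, 4 of them at 0 in WT replicate 2. Of 2267 tested genes in that range, which was set by the 4 members themselves, 10.4% had 0 counts in WT replicate 2. The share was 1.01% and 0.176% in Sfrp4-/- replicates 1 and 2, and 2.16% in WT replicate 1.

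**Figure D4:**
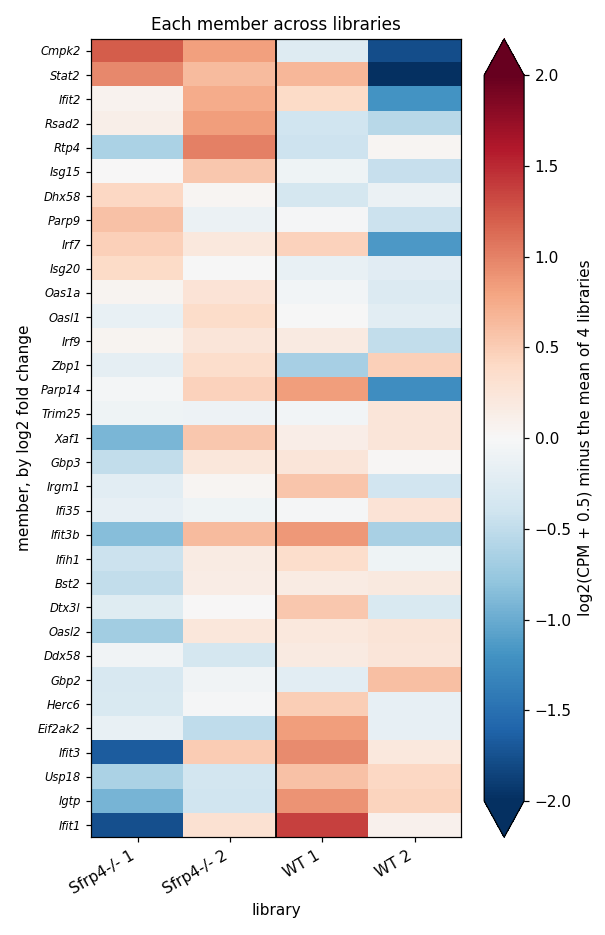
Each tested member (rows, ordered by log2 fold change) in each library (columns, Sfrp4-/- left), as log2(CPM + 0.5) minus its mean over the 4 libraries; red is higher and blue lower, and colours end at 2 on either side. The deepest blue cells fall in WT replicate 2 near the top (Stat2, Cmpk2) and in Sfrp4-/- replicate 1 near the bottom (Ifit1, Ifit3).

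**Figure D5:**
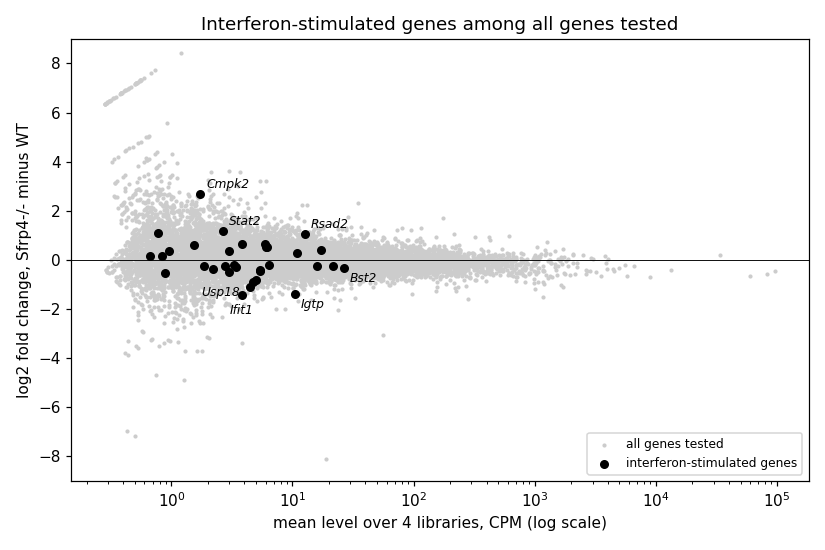
Log2 fold change (y axis, Sfrp4-/- minus WT) against mean level (x axis, CPM on a log scale) of all 13737 genes tested (grey) and the 33 tested members (black). The members fall inside the spread of genes at the same level on both sides of 0.

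The genes upstream of the set were read from lists drawn up for the pathway. Of 16 interferon genes, including Ifnb1 and the alpha interferons, 14 had 0 counts in every library. The other two were Ifnk, with 2 counts, and Ifng, with 1 count, all in Sfrp4-/- replicate 2. Receptors and signal transducers were present at higher levels, and 0 of the 15 tested passed, with 0 at an unadjusted p under 0.05 in either direction (median log2 fold change 0.07). Ifnar2, a subunit of the type I receptor, was at 89.3 and 73.5 CPM in Sfrp4-/- libraries and at 108 and 102 CPM in WT libraries (-0.37 ± 0.29, SE). Ifngr1 and Ifngr2, the receptor for interferon gamma, had -0.33 ± 0.35 and -0.14 ± 0.30. The kinase gene Jak2 had 0.49 ± 0.36, and Socs3, a feedback inhibitor of cytokine receptors, was at 17.2 and 19.2 CPM in Sfrp4-/- libraries and at 8.19 and 15.1 CPM in WT libraries (0.64 ± 0.39).

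Nucleic acid sensors and inducing kinases outside the set had a median of -0.11 over 18 tested genes, and 0 passed, with 0 at an unadjusted p under 0.05. Tmem173, the adaptor STING, was at 5.99 and 5.49 CPM in Sfrp4-/- libraries and at 7.99 and 8.85 CPM in WT libraries (-0.55 ± 0.39, SE). The adaptors Ticam1, Traf3 and Myd88 had -0.58 ± 0.42, -0.53 ± 0.44 and -0.23 ± 0.29, and the factor Irf3 had 0.19 ± 0.29. Of 66 tested interferon-stimulated genes not in the set, 32 lay above 0, with a median of -0.01, and 0 had an unadjusted p under 0.05. Among them Ifitm3, a membrane protein that blocks virus entry, was at 98.8 and 134 CPM in Sfrp4-/- libraries and at 90.9 and 76.8 CPM in WT libraries (0.47 ± 0.31). Its neighbour in function Ifitm2 had 0.077 ± 0.30. Parp10 had -0.91 ± 0.50 and Pnpt1 -0.73 ± 0.41.

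Genes of antigen presentation, many of them inducible by interferon, mostly had values below 0. Of 17 tested, 1 was above 0 (5.88%, against 50.4% of all genes tested), with a median of -0.45. Both Sfrp4-/- libraries lay below both WT libraries for 6 (35.3%, background 12.6%). These shares were not computed with libraries scaled by totals alone. That scaling put 5.20% of all genes lower in both and their median at 0.24. By edgeR, 0 passed over all genes and H2-Q7 alone had an unadjusted p under 0.05. H2-Q7, a class I molecule, was at 10.6 and 22.5 CPM in Sfrp4-/- libraries and at 69.2 and 28.5 CPM in WT libraries (-1.56 ± 0.54, SE). H2-D1 was at 704 and 656 CPM in Sfrp4-/- libraries and at 1724 and 890 CPM in WT libraries (-0.94 ± 0.41), and H2-Q6 had -1.68 ± 0.73. B2m, the shared light chain, was at 781 and 1007 CPM in Sfrp4-/- libraries and at 1543 and 960 CPM in WT libraries (-0.48 ± 0.38). Summed over the 20 genes of the list, the level was 2105 and 2261 CPM in Sfrp4-/- libraries and 4445 and 2609 CPM in WT libraries, without overlap and highest in WT replicate 1. The summed markers of skeletal and periosteal identity were also highest in that library. They stood at 259852 and 132097 CPM in Sfrp4-/- libraries and at 362134 and 210196 CPM in WT libraries. Endothelial markers were highest there too, for 5 of 5 tested, and summed to 4.80 and 3.16 CPM in Sfrp4-/- libraries and to 20.6 and 1.51 CPM in WT libraries. The part of either list in the antigen presentation values was not tested. Class I genes have near-identical copies, so single counts are uncertain.

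Markers of blood cells, which express many of these genes strongly, had counts in every library for each list but that of eosinophils and mast cells. Whether they came from carried-over cells, free RNA or the sorted cells was not tested. Macrophage markers, 14 of 14 detected in each library, summed to 653 and 979 CPM in Sfrp4-/- libraries and to 472 and 1023 CPM in WT libraries. Neutrophil markers, 10 of 10 detected, summed to 991 and 1407 CPM in Sfrp4-/- libraries and to 455 and 915 CPM in WT libraries. Erythroid markers, 11 of 11 detected, summed to 2101 and 2665 CPM in Sfrp4-/- libraries and to 755 and 2168 CPM in WT libraries. B lineage markers summed to 61.1 and 82.1 CPM in Sfrp4-/- libraries and to 40.2 and 65.6 CPM in WT libraries. Markers of T and NK cells summed to 6.96 and 9.48 CPM in Sfrp4-/- libraries and to 6.26 and 10.2 CPM in WT libraries, with Cd3e at 0 in all. The list for plasmacytoid dendritic cells, which includes the member Bst2 and genes of skeletal cells, summed to 344 and 334 CPM in Sfrp4-/- libraries and to 385 and 287 CPM in WT libraries. Its defining marker Siglech had 0 and 21 counts in Sfrp4-/- libraries and 0 and 9 counts in WT libraries. Eosinophil and mast cell markers summed to 152 and 4.76 CPM in Sfrp4-/- libraries and to 0 and 37.0 CPM in WT libraries, so replicate 1 was the higher in Sfrp4-/- libraries. Both Sfrp4-/- libraries lay above both WT libraries for 6 of 11 tested erythroid markers (54.5%, background 15.0%), and 0 lay below. This held for 4 of 8 B lineage markers (50%) and 4 of 10 neutrophil markers (40%), again with 0 below. Of 14 macrophage markers, 4 lay above (28.6%) and 1 below. The neutrophil sums did not overlap between the genotypes. These shares were not computed with totals alone. The macrophage, neutrophil, erythroid and B lineage sums were lower in replicate 1 than in replicate 2 of both genotypes. So was the summed level of the set in Sfrp4-/- but not in WT libraries. The part of these markers in the values of single members was not tested.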

How the data were processed

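RNA sequencing counts of 4 libraries of sorted periosteal cells were used, 2 per genotype, grouped by sample title. Values deposited by the authors were whole-number counts of reads per gene, not normalized, beside gene lengths in bases. Per the submitters' processing notes, the build was mm10 and the tools included HISAT2 2.0.5 and featureCounts 1.00-p3; counting options and annotation release are not stated there. Per the labels, libraries were non-directional and of ultra-low input.

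Genes were kept with filterByExpr (at least 10 counts at the median depth in 2 libraries; 13737 genes) and tested two-sided with edgeR 4.0.16 (R 4.3.3): TMM factors (0.989 and 1.19 in Sfrp4-/-, 0.877 and 0.972 in WT libraries), then glmQLFit and glmQLFTest on genotype alone, with Benjamini-Hochberg adjustment over all genes at 0.05. SE was obtained as the size of the log2 fold change over the root of its F statistic. With 2 libraries per group an exact two-sided permutation test cannot give a p under 0.333, so none was used. The test was also run on simulated data with known changes, whose outcome is not reported here. TPM was computed from counts and gene lengths.

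Overlaps and shared 50-base words came from GENCODE M21 (GRCm38), whose coordinates equal the deposited ones for all 38 members; promoters came from RefSeq GRCm38.p6. Named by rule were the 4 members with the lowest unadjusted p in each direction and the 6 of highest TPM. From each pathway list, the rule took the 3 of lowest p and the 2 of highest TPM. Not every value of each is printed. Other genes were named after their values were seen. Members and lists were chosen with earlier results of these data known. Alternatives were RLE factors, library totals alone, DESeq2 1.42.0, limma-voom (limma 3.58.1), no filter, a filter of 5 CPM in 2 libraries, protein-coding genes only, a block for the replicate number, and leaving out each library. Molecular identifiers are not mentioned in the labels. Every pair of libraries differed beyond counting noise (chi-square over its degrees of freedom 51.7 to 229.6). The lowest values were between same-numbered libraries of opposite genotype, 51.7 for replicate 1 and 61.1 for replicate 2. Between replicates of the same genotype it was 133 in Sfrp4-/- and 163 in WT libraries. Between differently numbered libraries of opposite genotype it was 84.0 and 229.6. Figures used matplotlib 3.10.9.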

Additional observations from a re-analysis of the deposited data

How the results depend on the processing

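No member passed under any of the 12 alternatives. The 10 named members kept the sign of their log2 fold change in all 116 values that these alternatives gave. They were picked by p or level in these same data, and most did not overlap between the genotypes. A kept sign was therefore largely fixed in advance and is no measure of robustness. Over all genes, calls numbered 20 with no filter on low counts, 5 with DESeq2, 1 with the replicate block and 2 to 7 with a library left out; they were 0 with limma-voom, RLE factors, library totals alone, the 5 CPM filter and protein-coding genes only. Members with an unadjusted p under 0.05 numbered 2 higher (Cmpk2 and Rsad2) with no filter (background 2.08%), with DESeq2 (1.39%) and with the replicate block (2.92%). They numbered 2 lower with no filter (Ifit1 and Igtp; background 1.13%) and with limma-voom (Igtp and Usp18; 0.757%). With a library left out they ranged from 0 to 6 higher, 6 without WT replicate 1 (background 7.59%) and 0 without Sfrp4-/- replicate 2 (0.679%), and from 0 to 4 lower, 4 without WT replicate 2 (2.42%). With totals alone, 10 members lay higher (background 27.1%) and 3 lower (5.20%) in both Sfrp4-/- libraries, and the median of the members was 0.066 and that of all genes 0.24. The log2 ratio of summed levels was then 0.175, against -0.083, and from -0.25 to 0.088 with a library left out. With the 5 CPM filter, which left 15 members, 2 lay higher (background 13.3%) and 4 lower (12.2%). With a library left out, a lone library separates more easily, for members and for all genes. Then 7 to 15 of 33 members lay higher (background 27.7% to 37.6%) and 7 to 16 lower (23.2% to 34.7%). The count of 15 higher came without WT replicate 1 (background 37.4%), and 7 higher without WT replicate 2 (37.6%). The count of 16 lower came without Sfrp4-/- replicate 2 (background 23.2%) and without WT replicate 2 (34.7%), and 7 lower without Sfrp4-/- replicate 1 (27.7%). The median of the members ranged from -0.35 without Sfrp4-/- replicate 2 to 0.25 without WT replicate 1, and was 0.12 without Sfrp4-/- replicate 1. The cause was not tested. Same-numbered libraries deviated together over all genes (correlation 0.26), but the labels do not tie the numbers to a batch. The median under the replicate block was -0.20. Low counts limit Zbp1, Parp14, Ifit2, Herc6 and Oasl1 most.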
